A study of Mus musculus with 32 samples.

Results

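Glp1r, Gipr, Gcgr, Gpr119, Ffar1, Chrm3, Adra2a, Sstr3, and Galr1 are G protein-coupled receptors (GPCRs) through which hormones, nutrients, and nerves adjust insulin secretion. These 9 genes were chosen by symbol, and all 9 were found among the 22850 genes of the normalized expression table. RNA was sequenced from 3 islet cell types of βVEGF-A; MIP-GFP mice after sorting: β cells, ECs (endothelial cells), and MΦs (macrophages). All groups carried 3 transgenes: RIP-rtTA, in which the rat Ins2 promoter drives the rtTA transactivator in β cells, a TetO transgene for human VEGF-A, and MIP-GFP, in which the mouse Ins1 promoter drives GFP. No Dox mice received no doxycycline (Dox), 1wk Dox mice received Dox for 1 week, so that their β cells made human VEGF-A, and 1wk WD mice were studied 1 week after Dox was withdrawn. β cells were GFP+ cells without CD31 or CD11b (4 samples at No Dox, 5 in 1wk Dox samples, and 3 at 1wk WD), ECs were CD31+ (4, 1, and 5), and MΦs were CD11b+ (4, 2, and 4). Each sample pooled islets of several mice, and p-values measure the spread between these pools.

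A secretory GPCR acts through the G protein it couples to. Receptors that couple to Gs raise cyclic AMP and amplify glucose-stimulated insulin release, receptors that couple to Gq raise diacylglycerol and release calcium from stores, and receptors that couple to Gi lower cyclic AMP and restrain release. Glp1r and Gipr bind the gut incretins GLP-1 and GIP, Gcgr binds glucagon, and Gpr119 senses lipid amides, all through Gs. Ffar1 senses long-chain fatty acids and Chrm3 is the muscarinic receptor for acetylcholine from parasympathetic nerves, both mainly through Gq. Adra2a binds adrenaline and noradrenaline, Sstr3 binds somatostatin, and Galr1 binds galanin, all through Gi.

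Values are scores, normalized by the authors and given as whole numbers of 1 or more, and the depth of each sample is unknown. On mouse genome build mm9, Glp1r (ENSMUSG00000024027) spans 31038785 to 31073455 on chromosome 17. Adra2a spans 54119672 to 54123472 on chromosome 19, Chrm3 spans 9876381 to 9878329 on chromosome 13, and Ffar1 spans 31645587 to 31646489 on chromosome 7. These last 3 are single-exon models, of 3801, 1949, and 903 bp. Gipr lies at 19742474 to 19751476 on chromosome 7 and Gcgr at 120392013 to 120400402 on chromosome 11. Gpr119 lies at 46021156 to 46027655 on the X chromosome and Sstr3 at 78367445 to 78374775 on chromosome 15. All 9 are protein-coding genes.

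The 3 receptors on which the comparison of cell types turns are Glp1r, whose EC scores were far below its β cell scores, and Adra2a and Chrm3, whose EC scores came closest to their β cell scores. The 250 bases before their annotated starts were taken from RefSeq on GRCm38.p6, a later build than that of the scores, and are shown 5′ to 3′ on the strand of the gene. Capitals mark a match to TATAAA (the TATA box), the one searched motif found in these 3 windows. The Glp1r window is chr17:30901617-30901866 on the plus strand, that of Adra2a is chr19:54045009-54045258 on the plus strand, and that of Chrm3 is chr13:10360804-10361053 on the minus strand. The RefSeq start of Chrm3 need not be that of the single-exon model above.
Glp1r: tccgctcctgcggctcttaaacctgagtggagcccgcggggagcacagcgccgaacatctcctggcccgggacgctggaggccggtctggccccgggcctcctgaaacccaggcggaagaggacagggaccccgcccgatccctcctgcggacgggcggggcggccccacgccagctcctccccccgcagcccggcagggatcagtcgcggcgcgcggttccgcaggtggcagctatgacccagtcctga
Adra2a: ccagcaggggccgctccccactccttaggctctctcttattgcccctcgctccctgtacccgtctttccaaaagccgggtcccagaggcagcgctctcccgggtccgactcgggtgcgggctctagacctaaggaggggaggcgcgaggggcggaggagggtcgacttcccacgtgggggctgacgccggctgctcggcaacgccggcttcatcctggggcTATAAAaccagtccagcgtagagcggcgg
Chrm3: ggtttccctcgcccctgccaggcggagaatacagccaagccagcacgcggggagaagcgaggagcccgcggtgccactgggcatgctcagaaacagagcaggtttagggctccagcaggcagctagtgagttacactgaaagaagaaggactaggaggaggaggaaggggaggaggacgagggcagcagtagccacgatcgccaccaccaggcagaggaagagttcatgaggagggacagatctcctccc

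Of the 9 receptors, 7 had a promoter in the RefSeq table. The GC content of the windows shown was 73.2% for Glp1r, 67.6% for Adra2a, and 61.2% for Chrm3, against a median of 52.4% over 32851 promoters. The TATAAA match of Adra2a began 29 bases before the start, and 12.4% of all promoters held this motif on either strand. TGACGTCA, the cyclic AMP response element, was in none of the 7 receptors' windows and in 1.55% of all promoters. TAATTA, a homeodomain core, was in none and in 4.84%. TGCTGAC, a stretch of the Maf recognition element, was in 1 of the 7 (Ffar1) and in 3.81% of all. None of these motifs overlapped another in the windows shown, and a match is a run of letters, not a bound site.

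The defining marker of each sort separated the cell types. Ins1 scored 218872 or more in every β cell sample and 27471 or less in every other sample, Pecam1 scored 61523 or more in ECs and 7237 or less elsewhere, and Itgam scored 20309 or more in MΦs and 294 or less elsewhere. The β cell samples were uneven. Their mean log2(score + 1) over 9 stromal markers, such as Pdgfrb and Col1a1, was 5.16 and 4.43 in No Dox 1 and 2 but 12.89 and 14.44 in No Dox 3 and 4, from 12.18 to 14.23 in 1wk Dox samples, and 14.35, 14.08, and 10.28 at 1wk WD. The mean over 10 β cell markers, such as Ins1, Pdx1, and Mafa, was 16.22 and 16.12 in No Dox 1 and 2 and 14.18 and 12.90 in No Dox 3 and 4. The mean over 8 acinar markers was 15.74, 11.41, 19.90, and 19.26 in the No Dox samples, 4.12 to 10.30 in 1wk Dox samples, and 15.35, 13.03, and 4.03 in 1wk WD samples. The acinar mean exceeded that of the β cell markers in No Dox 3 and 4 and 1wk WD 1, and the stromal mean did so in No Dox 4, 1wk Dox 1 and 4, and 1wk WD 1. Outside β cells, the acinar mean exceeded that of the sorted type in EC No Dox 2 (16.87 against 15.21) and in MΦ No Dox 2 (19.54 against 14.31) and 4 (17.12 against 14.55). Differences of No Dox β cells are also given without No Dox 3 and 4 and without No Dox 1 and 2, whereas percentages of the No Dox β cell mean and means per kb use all 4.

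Across sorted cell types at No Dox, β cells held more of nearly every receptor. The call rule was a fold change of 2 or more with an adjusted p under 0.05 (limma, Benjamini-Hochberg over all genes). Against ECs, 8 of 9 receptors were called higher in β cells, where 21.2% of the 16380 genes tested were called higher. Against MΦs, 9 of 9 were called higher, where 23.5% of genes were. The receptor not called against ECs was Chrm3. These counts are no support for a difference, because a minimum mean score of 20 in any 1 group let genes into the test: Gipr, Gpr119, Ffar1, and Sstr3 reached it through β cells alone, and Galr1 was below it in ECs (mean 6.25). With the replicate block, 7 of 9 were called against ECs, since Adra2a was not, where 6006 of all genes were called in either direction (6169 without the block). At 1wk WD the counts were 8 of 9 against ECs (background 25.2% of 16435 genes) and 9 of 9 against MΦs (27%), Chrm3 was again the exception, and 5 of the 9 reached the minimum through β cells alone. The plot of scores by sample shows these levels.

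**Figure D1:**
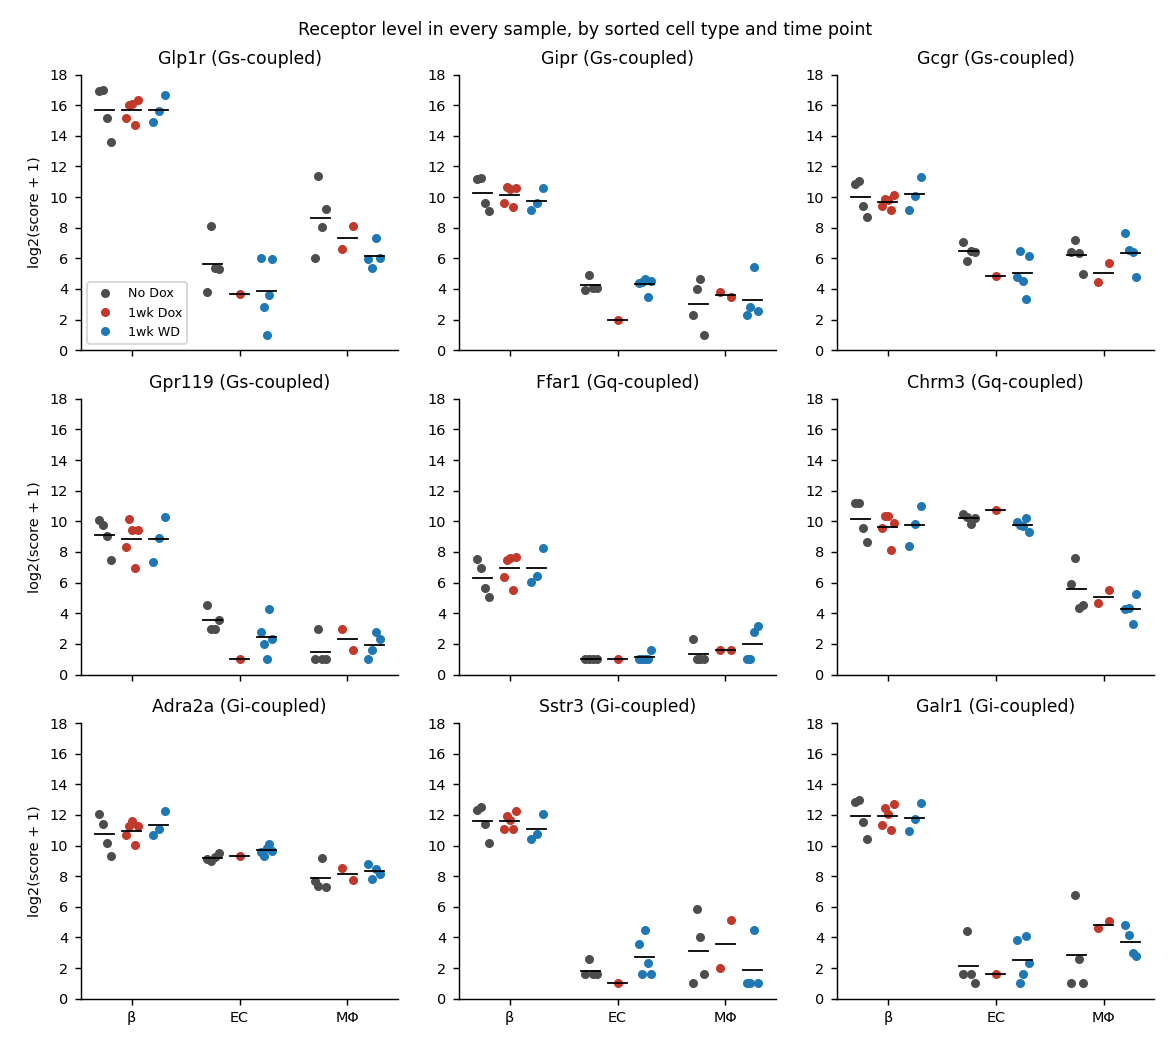
Level of each receptor, log2(score + 1), in every sample by sorted cell type (β, EC, MΦ) and time point (colours); points are samples and the black lines are group means. Glp1r in β cells lay between 13.61 and 17.02, Chrm3 overlapped between β cells and ECs, and the time points overlapped within β cells for Glp1r.

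Glp1r, the GLP-1 receptor, scored 122072, 133286, 35860, and 12519 at No Dox, 36475, 64858, 69106, 26706, and 82850 in 1wk Dox samples, and 29928, 49397, and 104386 at 1wk WD in β cells. No Dox 1 and 2 and 1wk WD 3 were the 3 highest, No Dox 4 was the lowest, and the 3 time points overlapped. Among ECs it scored 13, 272, 41, and 39 at No Dox, 12 in the single 1wk Dox sample, and 63, 6, 1, 11, and 62 at 1wk WD. At No Dox it was 10.01 ± 1.18 (log2, SE) higher in β cells than in ECs (adjusted p = 3.17e-05, limma) and 7.00 ± 1.18 higher than in MΦs (adjusted p = 0.000378, limma). MΦ scores were 65, 2621, 259, and 597 at No Dox, 95 and 279 in 1wk Dox samples, and 61, 41, 157, and 64 at 1wk WD. The high value, MΦ No Dox 2, came from the MΦ library with the highest Ins1 (27471), Ins2 (15116), and acinar marker mean (19.54), and their part in it was not tested. Without that library Glp1r was 7.90 above MΦs, without MΦ No Dox 1 it was 6.13, and without β cell No Dox 4 it was 7.69. Against ECs it was 10.83 without EC No Dox 2, 9.40 without EC No Dox 1, 10.70 without β cell No Dox 4, and 9.40 with 20 in place of 1 added to each score.

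Gipr, the GIP receptor, scored 2291, 2471, 789, and 549 in No Dox β cells, 772, 1608, 1479, 661, and 1573 in 1wk Dox samples, and 575, 768, and 1505 at 1wk WD. It was 1 to 42 in every EC and MΦ sample, and the difference at No Dox was 6.04 (log2) from ECs and 7.30 from MΦs (6.63 without MΦ No Dox 4). Gipr reached the minimum mean score through β cells alone, so these differences are descriptions and no test is given. Gpr119, a lipid receptor, scored 1091, 878, 515, and 181 at No Dox, 319, 1133, 704, 123, and 693 in 1wk Dox samples, and 165, 482, and 1255 at 1wk WD. Outside β cells it reached at most 22, in an EC sample. Both receptors thus stood at levels in β cells that no EC or MΦ sample came near.

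Gcgr, the glucagon receptor, scored 1872, 2098, 680, and 407 in No Dox β cells, 674, 948, 907, 576, and 1119 in 1wk Dox samples, and 566, 1050, and 2552 at 1wk WD. Its scores outside β cells were higher than those of the other Gs-coupled receptors relative to β cells. ECs had 134, 57, 89, and 85 at No Dox and 27, 88, 22, 9, and 71 at 1wk WD, and MΦs had 83, 144, 79, and 30 at No Dox. The EC mean at No Dox was 7.22% of the β cell mean and the MΦ mean was 6.64%, where 10 β cell markers in ECs ranged from 0.0251% to 1.47%. β cells remained 3.53 ± 0.60 (log2, SE) above ECs (adjusted p = 0.000474, limma).

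Ffar1, the fatty acid receptor, had low scores in β cells and scores of 8 or less in every EC and MΦ sample. It scored 183, 125, 48, and 32 at No Dox, 82, 178, 197, 44, and 202 in 1wk Dox samples, and 66, 87, and 302 at 1wk WD. In ECs it was at the lowest score in 4 of 4 No Dox samples and in 4 of 5 samples at 1wk WD, and in MΦs it did not exceed 8. No fold or test is given against No Dox ECs, because all EC scores were at the lowest value and Ffar1 reached the minimum mean score through β cells alone.

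Chrm3, the muscarinic receptor, overlapped between ECs and β cells. β cells scored 2355, 2327, 740, and 396 at No Dox, and ECs scored 1453, 1270, 899, and 1172, so that β cell samples lay on both sides of the EC range. At 1wk WD, β cells scored 336, 925, and 2088 and ECs 973, 862, 816, 1170, and 640. The difference of β cells from ECs was -0.07 ± 0.73 (log2, SE; 95% interval -1.68 to 1.54, adjusted p = 0.950, limma) at No Dox and -0.01 ± 0.54 (interval -1.17 to 1.14) at 1wk WD. The EC mean at No Dox was 82.4% of the β cell mean, where the highest β cell marker in ECs was at 1.47%. The single EC sample at 1wk Dox scored 1698 with an acinar marker mean of 2.69 and a β cell marker mean of 3.88, and the part of other cells in EC Chrm3 was not tested. MΦs had 9 to 192.

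Which No Dox β cell samples enter decides the sign of the Chrm3 difference. Without No Dox 3 and 4, the libraries with high stromal and acinar markers, it was 0.99 (adjusted p = 0.287, limma), and without No Dox 1 and 2 it was -1.12 (adjusted p = 0.255). This pair of settings was added after the data were seen, and the β cell arm then held 2 samples. In bulk samples such as these, fewer cells of a type and less RNA per cell cannot be told apart.

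Adra2a, the α2A adrenoceptor, was the other receptor with a clear level outside β cells. β cells scored 4344, 2732, 1167, and 628 at No Dox, 1640, 2488, 3067, 1066, and 2541 in 1wk Dox samples, and 1656, 2198, and 4907 at 1wk WD. ECs scored 546, 520, 604, and 724 at No Dox, 626 in the 1wk Dox sample, and 764, 644, 930, 1095, and 816 at 1wk WD. MΦs scored 208, 164, 586, and 159 at No Dox, 373 and 216 in 1wk Dox samples, and 440, 229, 348, and 286 at 1wk WD. The EC samples stayed within a narrow band, and of the No Dox β cell samples only number 4 fell inside the No Dox EC range.

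At No Dox, Adra2a was 1.53 ± 0.57 (log2, SE) higher in β cells than in ECs (adjusted p = 0.0425, limma), the smallest difference among the called receptors, and at 1wk WD it was 1.64 ± 0.33 higher (adjusted p = 0.000893). The No Dox call was lost in 7 of 12 fits that left out 1 sample, whose values ranged from 1.09 to 2.02, and these 7 were the fits without β cell No Dox 1 or 2, without any 1 of the 4 ECs, or without MΦ No Dox 1. It was also lost with the replicate block (adjusted p = 0.0608, limma) and under quantile normalization (1.38, adjusted p = 0.0946). It rose to 2.54 (adjusted p = 0.000921) without No Dox 3 and 4 and was 0.53 (adjusted p = 0.404) without No Dox 1 and 2. The differences of the other receptors moved with the same libraries. Without No Dox 3 and 4 and without No Dox 1 and 2, respectively, Glp1r was 11.31 and 8.72 above ECs, Gipr 6.97 and 5.12, Gcgr 4.49 and 2.58, Gpr119 6.41 and 4.73, Sstr3 10.58 and 8.94, and Galr1 10.77 and 8.84. In the same order, the differences of 8 receptors from MΦs were 8.30 and 5.71 for Glp1r, 8.22 and 6.37 for Gipr, 4.74 and 2.83 for Gcgr, 8.44 and 6.76 for Gpr119, 5.61 and 3.50 for Chrm3, 3.85 and 1.84 for Adra2a, 9.30 and 7.66 for Sstr3, and 10.07 and 8.14 for Galr1. With No Dox 1 and 2 left out, 7 of 9 receptors were called against ECs and 9 of 9 against MΦs. Of all genes, 6199 and 7046 were called in either direction in these 2 comparisons. As above, such counts are no support for a difference, because of how the minimum mean score let genes in. The EC mean of Adra2a was 27.0% of the β cell mean at No Dox, and the MΦ mean was 12.6%.

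Sstr3, a somatostatin receptor, and Galr1, a galanin receptor, were the Gi-coupled receptors with the widest gaps. Sstr3 scored 5088, 5856, 2710, and 1124 in No Dox β cells, 2177, 3889, 3277, 2205, and 4820 in 1wk Dox samples, and 1405, 1759, and 4290 at 1wk WD. It was 2 to 5 in the 4 No Dox ECs, a difference of 9.76 (log2). Galr1 scored 7332, 8037, 2999, and 1358 at No Dox, 2565, 5552, 4185, 2073, and 6731 in 1wk Dox samples, and 2011, 3346, and 6960 at 1wk WD. It was 1 to 20 in No Dox ECs, a difference of 9.80. Sstr3 reached the minimum mean score through β cells alone and Galr1 was below it in ECs, so these differences are descriptions and no test is given. Against MΦs the differences were 8.48 for Sstr3 and 9.11 ± 1.24 (SE) for Galr1, and MΦ No Dox 2 again held the highest Galr1 of its group, at 107. Without that library they were 9.40 for Sstr3 and 10.41 for Galr1, without MΦ No Dox 1 they were 7.78 and 8.50, and without MΦ No Dox 4 Galr1 was 8.50. Without EC No Dox 2, Galr1 was 10.55 above ECs. Differences from scores this low also depend on the 1 added before the logarithm. With 20 added, they were 7.10 for Sstr3 and 7.29 for Galr1 against ECs and 6.54 and 6.85 against MΦs, and those of Gipr and Gpr119 were 5.06 and 4.20 against ECs and 5.43 and 4.68 against MΦs.

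**Figure D2:**
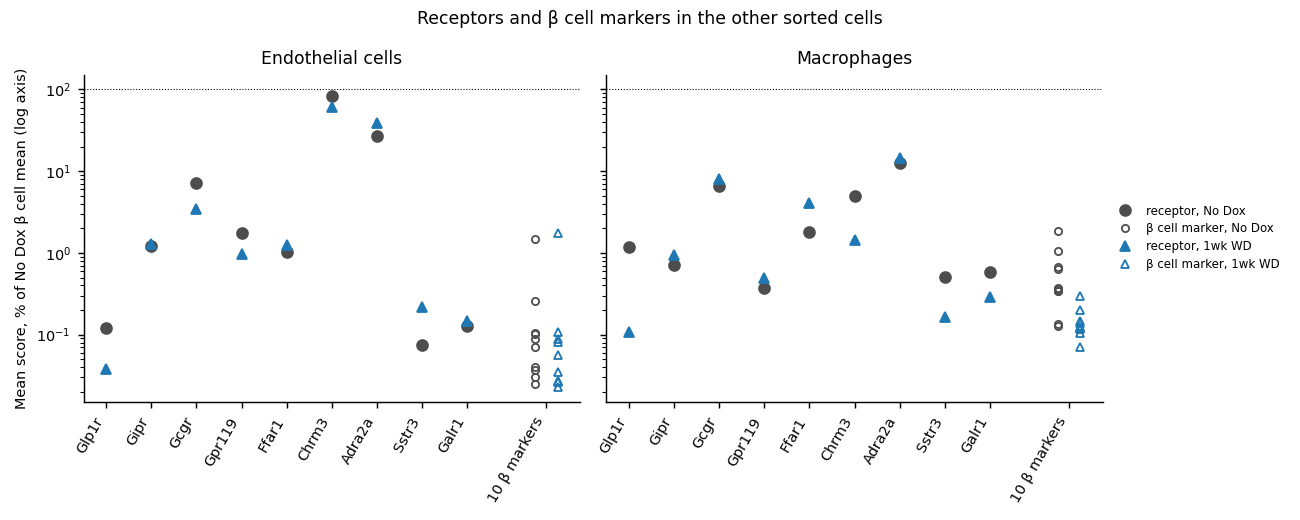
Mean score in ECs (left) and MΦs (right) as a percentage of the No Dox β cell mean on a log axis, for each receptor (filled) and for 10 β cell markers (open), at No Dox and 1wk WD. In ECs, Chrm3 (82.4%) and Adra2a (27.0%) lay far above the markers; Ffar1 was at the lowest score in all 4 No Dox ECs, so its point there is a floor.

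Levels of different receptors are set in order here per kb of exon. In No Dox β cells the mean score per kb was 50388 ± 40264 for Glp1r (SD, n = 4), then 1718 ± 1136 for Galr1, 941 ± 554 for Sstr3, 851 ± 556 for Gipr, 746 ± 530 for Chrm3, 584 ± 441 for Adra2a, 463 ± 309 for Gcgr, 294 ± 177 for Gpr119, and 107 ± 77.8 for Ffar1. Glp1r was above Galr1, and Galr1 above Sstr3, in 12 of 12 β cell libraries. The other neighbours in this order kept it in 10 or 11 of 12 libraries, except for Chrm3 and Adra2a, where Chrm3 was above Adra2a in 5 of 12. For 6 of the 8 neighbouring pairs the gap in means was smaller than the SD of the higher receptor, and the exceptions were Glp1r above Galr1 and Gpr119 above Ffar1. The per kb value of Chrm3 depends on its single-exon model.

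Expressed as a share of the summed scores per kb of the 9 receptors, Glp1r took from 83.0% to 90.9% in the 12 β cell libraries. The Gs-coupled group took from 88.4% to 93.5%, the Gi-coupled group from 5.15% to 9.24%, and the Gq-coupled group from 0.939% to 2.39%. No Dox 4 gave the lowest Gs share and the highest Gi and Gq shares. In 1wk Dox samples Glp1r took 87.4% to 89.4%, and in 1wk WD samples 89.0% to 89.6%, both inside the range at No Dox.

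Whether VEGF-A induction or its withdrawal altered these receptors in β cells was addressed by comparing the time points. None of the 9 was called at 1wk Dox against No Dox, where 0.0122% of the 16346 genes tested were called. None was called at 1wk WD against No Dox or at 1wk WD against 1wk Dox, where 0% of genes were called in each. Without adjustment, 660, 727, and 471 genes met the fold and a p of 0.05 (limma) in the 3 comparisons, and 0 of the 9 receptors passed an unadjusted p of 0.05 in any. That p alone was passed by 6.99%, 8.17%, and 6.31% of all genes. Scores at 1wk WD overlapped those at No Dox for all 9 receptors, where 6.44% of all genes did not overlap. These comparisons share samples, since each pair of them has a group in common.

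At 1wk Dox the differences ran from -0.48 ± 0.69 (log2, SE) for Chrm3 to 0.64 ± 0.70 for Ffar1, with a median of -0.04 over the 9 receptors and 0.03 over all genes. At 1wk WD they ran from -0.52 ± 0.57 for Gipr to 0.63 ± 0.80 for Ffar1, with medians of -0.13 and 0.06. Glp1r differed by -0.01 ± 0.70 (95% interval -1.55 to 1.52) at 1wk Dox and 0.05 ± 0.80 (interval -1.70 to 1.79) at 1wk WD, so a change of 2-fold in either direction lies inside both intervals. Adra2a at 1wk WD differed by 0.61 ± 0.62 (interval -0.76 to 1.97, adjusted p = 0.766, limma), the lowest adjusted p of the 9 in that comparison. Between 1wk WD and 1wk Dox the differences ran from -0.51 ± 0.54 for Sstr3 to 0.48 ± 0.58 for Gcgr.

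Scores spread widely within the No Dox group. From its lowest to its highest sample, the score ranged 10.65-fold for Glp1r, 6.92-fold for Adra2a, 6.03-fold for Gpr119, 5.95-fold for Chrm3, and between 4.50-fold and 5.92-fold for the other 5 receptors. The spread was wider still for Gpr119 at 1wk Dox (9.21-fold) and 1wk WD (7.61-fold) and for Chrm3 at 1wk WD (6.21-fold). For the other receptors the No Dox range was the widest of the 3 time points. All 9 receptors were among the 4 highest of 12 β cell libraries in No Dox 1, and 8 of 9 were in No Dox 2 and in 1wk WD 3. All 9 were among the 3 lowest in No Dox 4, 8 of 9 in 1wk Dox 4, and 7 of 9 in 1wk WD 1. The libraries high in these receptors were also high in β cell markers and low in stromal markers, as the plot against marker means shows, and the part of this in the time-point results was not tested. At 1wk Dox against No Dox the median difference was 3.85 (log2) over the 9 stromal markers, -9.11 over the 8 acinar markers, and 2.19 over the 8 EC markers. None of these markers was called. At an unadjusted p under 0.05 (limma), 4 of 9, 8 of 8, and 2 of 8 passed, as did 6.99% of all genes.

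**Figure D3:**
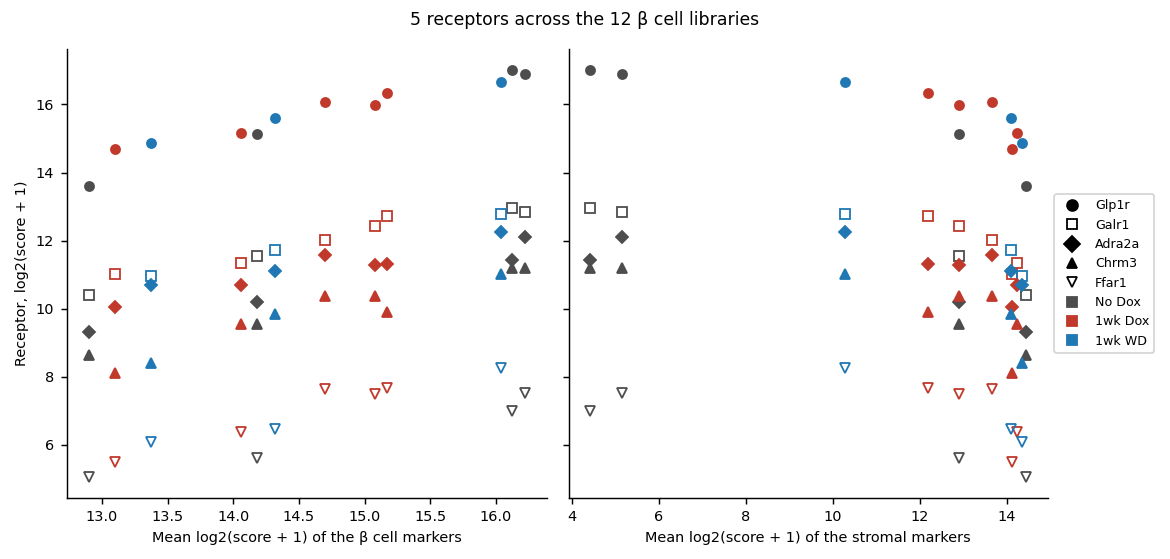
Level of 5 receptors, log2(score + 1), in the 12 β cell libraries against the mean log2(score + 1) of 10 β cell markers (left) and of 9 stromal markers (right), coloured by time point. Glp1r was highest in the 3 libraries with a β cell marker mean above 16 (No Dox 1 and 2 and 1wk WD 3) and lowest in No Dox 4, whereas Ffar1 was higher in 1wk Dox 5 (score 202) than in No Dox 1 (183) or 2 (125).

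Beside the β cell markers the receptors varied less. The SD over the 12 libraries fell from 1.02 to 0.33 (log2) for Glp1r once the β cell marker mean of each library was subtracted, from 1.06 to 0.31 for Chrm3, from 0.86 to 0.38 for Galr1, and from 1.15 to 0.44 for Gpr119. The smallest drops among the 9 were from 0.77 to 0.50 for Gipr and from 0.77 to 0.56 for Sstr3. The unweighted mean of log2 scores over the 9 receptors, less the marker mean, was -4.56 and -4.54 in No Dox 1 and 2, -4.36 in 1wk WD 3, and from -4.02 to -3.55 in the other 9 libraries. With each library scaled to its β cell markers, a setting added after the data were seen, 0 receptors were called in any of the 3 comparisons, and the differences from No Dox ran from -0.05 to 1.07 for 1wk Dox samples and from -0.24 to 0.91 for 1wk WD samples.

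Leaving out either pair of No Dox libraries turned the time-point differences of all receptors to one side. Without No Dox 3 and 4, 9 of 9 receptors were lower at 1wk Dox, by differences of -1.54 to -0.32 (log2), and 9 of 9 were lower at 1wk WD, by -1.45 to -0.33. Without No Dox 1 and 2, 9 of 9 were higher at 1wk Dox, by 0.57 to 1.60, and 9 of 9 at 1wk WD, by 0.33 to 1.61. No receptor was called in any of these fits, and the lowest adjusted p was 0.0950, for Gipr at 1wk WD without No Dox 3 and 4 (limma). The number of all genes called rose to 1199 and 1424 without No Dox 3 and 4, and to 80 and 14 without No Dox 1 and 2.

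**Figure D4:**
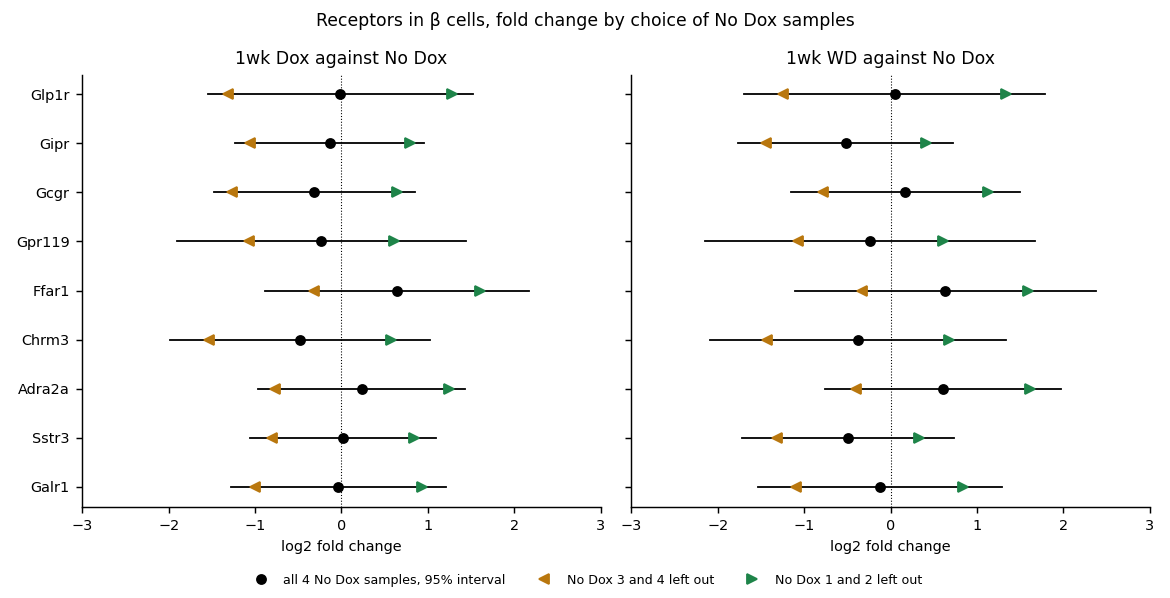
log2 fold change of each receptor in β cells at 1wk Dox (left) and 1wk WD (right) against No Dox, with the 95% interval from all 4 No Dox samples (black) and the values without No Dox 3 and 4 (left-pointing) or without No Dox 1 and 2 (right-pointing). All 9 intervals span 0 in both panels, and the 2 smaller sets of No Dox samples lie on opposite sides of 0 for every receptor.

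In ECs, 4 receptors passed the minimum mean score of 20 (Glp1r, Gcgr, Chrm3, and Adra2a), and none was called at 1wk WD against No Dox, where 1.76% of the 14167 genes tested were called and 678 genes met the fold and a p of 0.05 without adjustment (limma). The 250 genes called became 75, 76, and 138 without EC No Dox 3, 1, and 2, respectively. Of the 4 receptors, 3 had an unadjusted p under 0.05, as did 21.9% of all genes. Adra2a was 0.49 ± 0.17 (log2, SE) higher at 1wk WD (95% interval 0.13 to 0.86, adjusted p = 0.127, limma), with 4 of 5 samples above the highest No Dox value of 724. Chrm3 differed by -0.43 ± 0.18 (adjusted p = 0.197), and Gcgr differed by -1.40 ± 0.58 (adjusted p = 0.189). Beside these, 5 of 9 stromal markers were called higher and 8 of 8 acinar markers were called lower in ECs at 1wk WD, and their part was not tested.

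In MΦs, 5 receptors passed the minimum (Glp1r, Gcgr, Chrm3, Adra2a, and Galr1), and none was called in the 3 comparisons. The MΦ group at 1wk Dox held 2 samples. The background was 2.26% of 15014 genes at 1wk Dox against No Dox, 0.626% at 1wk WD against No Dox, and 0.0866% at 1wk WD against 1wk Dox, and 983, 746, and 273 genes met the fold and a p of 0.05 without adjustment (limma). Leaving out 1 library moved the 340, 94, and 13 genes called to between 0 and 487, 23 and 123, and 0 and 24. The 340 fell to 0 without 1wk Dox 4 and to 49 without 1wk Dox 5, and the 94 fell to 23 without 1wk WD 2 or 3, to 33 without 1wk WD 4, and to 39 and 51 without 1wk Dox 4 and 5. The 13 fell to 0 without 1wk Dox 4 or 5 or 1wk WD 2 or 3, to 4, 5, and 8 without 1wk WD 1, No Dox 4, and 1wk WD 4, and rose to 24 without No Dox 3. Glp1r had the lowest p of these, at -2.49 ± 0.88 (log2, SE) for 1wk WD against No Dox (adjusted p = 0.171, limma). Over the fits without 1 library this difference ranged from -3.37 to -1.60, the latter without MΦ No Dox 2 (adjusted p = 0.249, limma). Galr1 at 1wk Dox was 2.01 ± 1.48 above No Dox (adjusted p = 0.475, limma), and 1.40 to 3.32 above it over the fits without 1 library. The 3.32 was without MΦ No Dox 2, where the other No Dox scores were 1, 5, and 1. Galr1 then reached the minimum mean score only through the 2 samples at 1wk Dox (24 and 32), so no test is given for that fit. Adra2a differed by 0.41 ± 0.41 at 1wk WD (adjusted p = 0.627).

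The signalling genes behind these receptors were read against the same background (0.0122%, 0%, and 0% of all genes called). In each of the 3 β cell comparisons, 0 of 28 genes of the Gs and cyclic AMP arm, 0 of 15 of the Gi and Go arm, 0 of 17 of the Gq arm, 0 of 12 receptor regulators, 0 of 41 tested of 50 other islet GPCRs, and 0 of 8 tested of 12 islet ligands were called. At an unadjusted p under 0.05 (limma), 1, 3, 1, 1, 5, and 1 of these genes passed at 1wk WD against No Dox, where 8.17% of all genes did. The list medians there were 0.13 for the Gs arm, -0.22 for the Gi arm, 0.04 for the Gq arm, 0.27 for the regulators, 0.38 for the other GPCRs, and -1.08 for the ligands, beside 0.06 over all genes.

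By score per kb in No Dox β cells, the leading genes of the Gs arm were Prkar1a (2184), a regulatory subunit of protein kinase A, Prkacb (2129), a catalytic subunit, and Adcy9 (1555), an adenylyl cyclase. In the Gi arm they were Rgs7 (5808) and Rgs2 (3442), which speed the shut-off of G proteins, and Gnai2 (2268), a Gi α subunit. The place of a regulator such as Rgs2 in this list does not say which G protein it acts on. In the Gq arm they were the protein kinase C and D genes Prkcb (2641), Prkd1 (2400), and Prkca (1675). Adrbk2 (1102), a receptor kinase, Ramp1 (561), a receptor partner protein, and Grk5 (475), another receptor kinase, led the regulators. Prkacb was 11626 in No Dox β cells and 3859 in ECs by mean score, whereas Prkd1 was 9066 in β cells and 13677 in ECs.

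The largest shifts at 1wk WD in the Gs arm were Adcy4 (2.87 ± 1.34, log2, SE), Adcy7 (2.12 ± 1.04), and Rapgef3 (1.79 ± 0.90). Rgs2 (-1.37 ± 0.42), Rgs3 (1.36 ± 0.60), and Gnai1 (-0.92 ± 0.30) led the Gi arm, and Plcb2 (3.58 ± 1.84), Prkcd (1.61 ± 0.53), and Dgkb (0.85 ± 0.73) led the Gq arm. Among the regulators they were Ramp3 (3.56 ± 1.42), Rgs14 (2.94 ± 1.94), and Arrb1 (1.62 ± 0.95). Of these 12 genes, 10 had a higher No Dox mean in ECs or MΦs than in β cells (the exceptions were Gnai1 and Dgkb), such as Adcy4 (7676 in No Dox ECs against 174 in β cells) and Plcb2 (9180 in MΦs against 310). In the same β cell comparison the median difference was 1.06 over 8 EC markers, 1.71 over 10 MΦ markers, 3.62 over 9 stromal markers, and -5.78 over 8 acinar markers, 0 of them called, and their part was not tested. Of the 12, 3 did not overlap between No Dox and 1wk WD. The 12 were picked for their change in this same comparison, so this share cannot be set against the 6.44% of all genes tested. Rgs2 (6694 to 17747 at No Dox and 3511 to 6046 at 1wk WD) and Gnai1 (3442 to 5837 and 2186 to 2555) had lower scores at 1wk WD, and Ramp3 (1 to 15 and 35 to 78) had higher ones. None was called, the lowest adjusted p being 0.561 for Rgs2 (limma).

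Among other islet GPCRs, the highest per kb in No Dox β cells were Ptger3 (2553), a prostaglandin E receptor, Casr (1612), the calcium-sensing receptor, and Gpr27 (1140). Ptger3 had a mean score of 11638 at No Dox, 2055 in 1wk Dox samples, and 7941 at 1wk WD, a difference of -2.78 ± 0.66 (log2, SE) at 1wk Dox that was not called (adjusted p = 0.307, limma). Adcyap1r1, the PACAP receptor, Cckar, a cholecystokinin receptor, and Gpr55 shifted most at 1wk WD, by 5.01 ± 2.36, -4.51 ± 2.04, and 3.74 ± 1.66. Cckar ranged from 21 to 8883 within No Dox β cells, where the acinar marker mean ranged from 11.41 to 19.90, and Adcyap1r1 from 1 to 3354. Of the ligands, Ppy, Sst, and Pyy had the highest scores per kb in the β cell samples (51281, 50790, and 32790), which are messages of other islet endocrine cells. Gcg, which encodes glucagon, was picked for its change at 1wk WD against No Dox. It scored 26028 to 64922 at No Dox and 2313 to 23705 at 1wk WD, and was not called (-2.70 ± 0.83, adjusted p = 0.561, limma). These scores did not overlap, as was so for 6.44% of all genes tested. In this comparison the 5 α cell markers, Gcg among them, had a median difference of -0.86, with 2 of 5 at an unadjusted p under 0.05 (limma). Gal, which encodes galanin, the ligand of Galr1, ranged from 1 to 2187 at No Dox and from 1 to 59 at 1wk WD, and Vip ranged from 1 to 69 and from 1 to 24.

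In the other cell types a few genes of these lists were called, and they are named here after their values were seen. In ECs at 1wk WD the calls were 1 of 26 genes tested in the Gs arm, 2 of 10 in the Gi arm, 0 of 16 in the Gq arm, 2 of 11 regulators, 1 of 26 other GPCRs, and 1 of 6 ligands, where 1.76% of all genes were called. In MΦs, 1 of 14 genes tested in the Gi arm was called in each comparison with No Dox, 2 and 3 of 17 in the Gq arm, and 1 and 0 of 31 other GPCRs, with 0 in the other 3 lists, where 2.26% and 0.626% of all genes were called. In ECs at 1wk WD against No Dox, Adrbk2 (2.02 ± 0.26, log2, SE), Gprc5c (1.88 ± 0.37), Rgs4 (1.84 ± 0.39), Prkar1b (1.78 ± 0.38), and Rgs2 (1.06 ± 0.20) rose. Ramp3 (-1.18 ± 0.22) and Ppy (-3.30 ± 0.77) fell. In MΦs at 1wk Dox, O3far1 (-1.65 ± 0.34), Dgkg (-1.35 ± 0.21), Prkce (-1.25 ± 0.21), and Kcnj9 (-1.06 ± 0.25) fell. At 1wk WD, Gnai1 (-3.23 ± 0.69), Gna14 (-1.78 ± 0.26), Plcb1 (-1.47 ± 0.26), and Dgkg (-1.11 ± 0.17) fell in MΦs. Beside the MΦ calls at 1wk Dox, 4 of 8 acinar markers were called lower (median -8.31), 3 of 10 MΦ markers were called higher (median 0.66), and the 8 EC markers had a median of 2.01 with 0 called. At 1wk WD these medians were -6.36, 0.55, and 0.38 with 0 called, and the part of these markers was not tested. Only Adrbk2 in ECs and Gna14 in MΦs at 1wk WD kept the call in every fit without 1 library. In ECs, 6 of the 7 calls were lost in at least 1 such fit, and all 6 were lost without No Dox 3 and without No Dox 1. In MΦs all 4 calls at 1wk Dox were lost without 1wk Dox 4 and 0 of 4 held with the replicate block, and 3 of the 4 at 1wk WD were lost in at least 1 fit, Gnai1 in 9 of 10. With the replicate block, Ppy in ECs and Gnai1 in MΦs at 1wk WD were also not called.

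The genes most like each receptor were found by Pearson correlation of mean log2 score over the 9 groups of cell type and time point, as a description of how groups order. Glp1r was closest to Atpaf1 (0.998), Sel1l3 (0.998), and Sc4mol (0.997). Galr1 was closest to Mum1l1 (0.9985), Kcnh8 (0.9981), and Scn9a (0.9977), Sstr3 to Sntg1, Syt13, and Plcxd3 (0.997 to 0.998), and Ffar1 to Syn1, 5530401A14Rik, and Kcns3 (0.996 to 0.998). Gipr and Gpr119 shared Nova1 (0.997 and 0.996) and Zfp92 (0.996 and 0.997), Gpr119 was itself the other gene closest to Gipr (0.996), and Mapk8ip1 (0.996) was the other gene closest to Gpr119. Gcgr had the weakest likeness, led by H2-Q2 (0.990), 4833403I15Rik (0.985), and Adcy9 (0.984), and Adra2a was closest to Cap2 (0.993), Clip3 (0.992), and Nrip2 (0.9915).

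Chrm3 was closest to Ica1 (0.998), Prkd1 (0.995), and Stmn3 (0.994), genes with No Dox means as high in ECs as in β cells. Ica1 scored 8813 in β cells and 9088 in ECs by the mean, and 432 in MΦs. Prkd1, which is activated downstream of Gq, scored 9066, 13677, and 98. For the other 8 receptors, the leading genes had higher means in β cells than in ECs or MΦs. The 9 points share 3 cell types and their libraries.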

How the data were processed

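Expression was measured by RNA sequencing in 32 samples. The authors amplified the RNA (NuGEN Ovation), sequenced 50 bp paired-end reads, aligned them to mm9 with TopHat 2.0, and used Avadis NGS for quantification and TMM normalization. What they deposited is here called a score: a normalized value given as a whole number, from 1 to 6456823 (deposited scores are not counts). Reads cannot be recovered, so depth and counting error are unknown. Sums per sample ranged from 23465985 to 53441769. A further 6 columns of sample values belong to another series and were not used.

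Linear models of log2(score + 1), moderated with a mean-variance trend, were fitted by limma 3.58.1 (R 4.3.3) over genes with a mean score of 20 or more in one or more groups fitted. β cell and MΦ fits held all 3 time points, the EC fit No Dox and 1wk WD, because 1wk Dox ECs were 1 sample, and cell types were compared at No Dox and at 1wk WD. Benjamini-Hochberg adjustment covered every gene in a fit. The fit was tested on simulated data.

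Exon lengths came from GENCODE M1 (mm9), which the authors do not name, and upstream sequence from RefSeq. Named genes were the 9 receptors and, per list, the 3 highest per kb in No Dox β cells and the 3 with the largest change at 1wk WD, plus the 3 most like each receptor. Members and lists were chosen with earlier results of these data known. The alternatives were a pseudocount of 20, no filter, quantile normalization, median-of-ratios scaling, array weights, a replicate block, and leaving out each replicate. Python 3.11.15, pandas 2.3.3, and matplotlib 3.10.9 were used.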

Additional observations from a re-analysis of the deposited data

Results flagged for a closer look

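Of 53 groups of 4 or 5 samples tested for a sample far from the others, 7 had one. In each, the gap of 1 sample to its nearest neighbour was a large share of the range of the group. The cut-off marks about 1 in 20 by chance only for values without ties, so 7 of 53 cannot be set against that rate. In the marked groups of Ffar1, Gpr119, and Sstr3 the other samples were tied, so any 1 sample that differed was marked. All 7 lay outside β cells and at low scores. Gipr was lowest in EC 1wk WD replicate 4 (10) and highest in MΦ 1wk WD replicate 3 (42). Ffar1 was highest in EC 1wk WD replicate 5 (2) and in MΦ No Dox replicate 1 (4). Gpr119 was highest in MΦ No Dox replicate 2 (7). Sstr3 was highest in EC No Dox replicate 2 (5) and in MΦ 1wk WD replicate 3 (21).

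The single EC sample at 1wk Dox, which entered no comparison, had a Chrm3 score of 1698, above all 4 No Dox ECs, whose highest was 1453.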

How the results depend on the processing

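The count of receptors called kept within 1.5 times its value in each comparison under the alternatives run on it. Scaling to β cell markers was run on the 3 β cell time-point comparisons only, leaving out pairs of No Dox libraries on 5 comparisons, and leaving out 1 replicate on the fits that held it. Single differences changed sign as follows, with the log2 value under the alternative, and the cause was not tested. Under quantile normalization, the sign turned for Glp1r (0.56) and Galr1 (0.074) in β cells at 1wk Dox against No Dox, for Glp1r (-0.23) in β cells at 1wk WD against 1wk Dox. With array weights, the sign turned for Sstr3 (-0.13) in β cells at 1wk Dox against No Dox, for Glp1r (-0.43) and Gcgr (-0.24) in β cells at 1wk WD against No Dox, for Glp1r (-0.27) and Chrm3 (-0.51) in β cells at 1wk WD against 1wk Dox, for Chrm3 (0.48) in β cells against ECs at No Dox. Scaled to β cell markers, a shift that is the same for all genes of a comparison, the sign turned for Glp1r (0.42), Gipr (0.30), Gcgr (0.12), Gpr119 (0.20) and Galr1 (0.40) in β cells at 1wk Dox against No Dox, for Gpr119 (0.042) and Galr1 (0.15) in β cells at 1wk WD against No Dox, for Glp1r (-0.10) and Chrm3 (-0.054) in β cells at 1wk WD against 1wk Dox. Without β cell No Dox 3 and 4, the sign turned for Ffar1 (-0.32), Adra2a (-0.77) and Sstr3 (-0.81) in β cells at 1wk Dox against No Dox, for Glp1r (-1.25), Gcgr (-0.79), Ffar1 (-0.33) and Adra2a (-0.40) in β cells at 1wk WD against No Dox, for Chrm3 (0.99) in β cells against ECs at No Dox. Without β cell No Dox 1 and 2, the sign turned for Glp1r (1.28), Gipr (0.79), Gcgr (0.64), Gpr119 (0.61), Chrm3 (0.57) and Galr1 (0.93) in β cells at 1wk Dox against No Dox, for Gipr (0.41), Gpr119 (0.60), Chrm3 (0.68), Sstr3 (0.33) and Galr1 (0.84) in β cells at 1wk WD against No Dox. With a pseudocount of 20, the sign turned for Galr1 (-0.049) in MΦs at 1wk WD against No Dox. Under median-of-ratios scaling, the sign turned for Chrm3 (0.0076) in β cells against ECs at 1wk WD. Leaving out 1 replicate at a time turned the sign, with these ranges, for Glp1r (-0.70 to 0.44), Gipr (-0.53 to 0.19), Gcgr (-0.76 to 0.032), Gpr119 (-0.76 to 0.24), Adra2a (-0.25 to 0.68), Sstr3 (-0.47 to 0.32) and Galr1 (-0.55 to 0.31) in β cells at 1wk Dox against No Dox, for Glp1r (-0.64 to 0.50), Gcgr (-0.41 to 0.68), Gpr119 (-0.95 to 0.51), Ffar1 (-0.027 to 1.06), Chrm3 (-1.01 to 0.30) and Galr1 (-0.64 to 0.29) in β cells at 1wk WD against No Dox, for Glp1r (-0.42 to 0.48), Gcgr (-0.091 to 0.99), Gpr119 (-0.72 to 0.74), Ffar1 (-0.67 to 0.42), Chrm3 (-0.53 to 0.78), Adra2a (-0.085 to 0.70) and Galr1 (-0.56 to 0.33) in β cells at 1wk WD against 1wk Dox, for Chrm3 (-0.94 to 0.17) and Adra2a (-0.14 to 0.69) in MΦs at 1wk Dox against No Dox, for Gcgr (-0.29 to 0.66) in MΦs at 1wk WD against No Dox, for Adra2a (-0.24 to 0.55) in MΦs at 1wk WD against 1wk Dox, for Chrm3 (-0.42 to 0.43) in β cells against ECs at No Dox, for Chrm3 (-0.65 to 0.67) in β cells against ECs at 1wk WD. Adra2a in β cells against ECs at No Dox was no longer called under quantile normalization (1.38, adjusted p = 0.0946, limma) or without No Dox 1 and 2 (0.53), and ranged from 1.09 to 2.02 over the fits without 1 replicate.

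The correlation of deviations between samples with the same replicate number ran from -0.48 to 0.339 in β cells, -0.213 to 0.195 in ECs, -0.117 to 0.11 in MΦs, -0.194 to 0.384 across cell types at No Dox (different numbers -0.302 to 0.205), and -0.074 to 0.142 at 1wk WD (-0.153 to 0.143), so the numbers were not taken as pairs. With the replicate block, the sign turned for Sstr3 (-0.14) in β cells at 1wk Dox against No Dox, for Glp1r (-0.43) and Gcgr (-0.12) in β cells at 1wk WD against No Dox, for Glp1r (-0.24) and Chrm3 (-0.33) in β cells at 1wk WD against 1wk Dox, for Adra2a (-0.60) in MΦs at 1wk WD against 1wk Dox, for Chrm3 (0.089) in β cells against ECs at 1wk WD, Adra2a in β cells against ECs at No Dox was not called (1.53, adjusted p = 0.0608, limma), so 7 receptors were called there, and the number of all genes called in MΦs was 3, 43, and 0 in the 3 comparisons, against 340, 94, and 13. All genes called in MΦs numbered 712, 218, and 313 with array weights. At 1wk WD without the filter they were 37 against No Dox and 4 against 1wk Dox, where a pseudocount of 20 gave 8. In β cells they numbered 0 to 5 except without No Dox 3 and 4 (1199 and 1424) or 1 and 2 (80 and 14) and in fits without 1 replicate (up to 26). Depth is unknown, so low scores such as those of Ffar1 carry no counting error here.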
